A study of Mus musculus with 6 samples.

Results

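The 41 genes described here encode the enzymes, carriers and droplet proteins with which hepatocytes take up and burn fatty acids, and include many targets of the nuclear receptor PPAR-alpha. They were chosen by name with earlier results of these data known, and all 41 were among the 34745 genes counted in each library. Primary hepatocytes were taken from male FOXA2f/f mice aged 12 weeks, whose Foxa2 alleles are flanked by loxP sites, and were sequenced as 6 RNA-seq libraries. In the 3 FOXA2f/f+CCl4 libraries the mice had received a control AAV8 virus, and in the 3 FOXA2H-KO+CCl4 libraries they had received AAV8-TBG-Cre, which makes Cre recombinase under the TBG promoter, active in hepatocytes, so that Foxa2 is lost in hepatocytes and kept in other liver cells. Both viruses were given 2 weeks before carbon tetrachloride (CCl4), a liver toxin, which all mice of both groups then received to induce fibrosis, over 4 weeks with 2 injections of 0.25 ml/kg in each. No group without CCl4 was analysed here, and the sources used here do not say whether each library came from 1 mouse, so that p-values measure the spread between libraries. Values are given in the order of replicates 1, 2 and 4, as both groups are numbered.

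Fatty acids enter hepatocytes through transporters, are bound by carrier proteins and are activated to acyl-CoA. The carnitine shuttle brings long-chain acyl-CoA into mitochondria, where beta-oxidation shortens it and part of the product becomes ketone bodies, while peroxisomes handle very long chains and Cyp4a enzymes hydroxylate the omega end. In fasting, fatty acids activate PPAR-alpha, which pairs with RXR on DNA and raises the transcription of many of these genes, among them the Cyp4a and Acot genes, Pdk4, Plin2 and Angptl4.

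Total counts lay between 20983455 and 28327765 per library. Foxa2, the deleted gene, had 19.0, 13.5 and 16.4 CPM (counts relative to the library total scaled by edgeR's TMM factor) in FOXA2f/f and 1.03, 0.762 and 1.62 CPM in FOXA2H-KO libraries. Its log2 fold change of −3.85 (SE 0.31, adjusted p = 0.0313 by the quasi-likelihood test of edgeR, after Benjamini and Hochberg) made it the 1 gene called among 14417 tested. Albumin was between 83490 and 124580 CPM in all 6 libraries. Macrophage and sinusoidal endothelial markers were also present, and their summed levels were lowest in FOXA2f/f replicate 2 (674 and 332 CPM) and highest in FOXA2f/f replicate 4 (3086 and 1116 CPM). FOXA2H-KO replicate 4 stood apart in several of the 41 genes, so that the main counts and the medians by role are also given without it.

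The sequences of the Cyp4a genes are shown first, because they set how well the genes can be told apart by reads. Cyp4a12a, Cyp4a14, Cyp4a10, Cyp4a31 and Cyp4a32 lie in 1 cluster on chromosome 4, from 115299046 to 115621602 (GRCm38, GENCODE M21). The coding sequences of Cyp4a10 and Cyp4a32 were 97.2% identical, those of Cyp4a10 and Cyp4a31 96.6% and those of Cyp4a31 and Cyp4a32 96.0%, whereas Cyp4a14 was 75.4% to 76.1% identical to each of the other four. Below are the 60 coding bases of exon 2, from coding base 200 to 259, in which Cyp4a10, Cyp4a31 and Cyp4a32 differ most, written 5′ to 3′ on the plus strand with the 9 positions that are not the same in all of them in capitals. They lie at chr4:115519640-115519699, chr4:115565020-115565079 and chr4:115602270-115602329.
Cyp4a10: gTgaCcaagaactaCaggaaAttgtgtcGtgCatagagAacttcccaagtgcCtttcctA
Cyp4a31: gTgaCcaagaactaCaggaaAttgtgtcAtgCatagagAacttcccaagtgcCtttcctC
Cyp4a32: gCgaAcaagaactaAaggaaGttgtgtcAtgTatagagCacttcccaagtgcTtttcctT

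Even in this stretch Cyp4a10 and Cyp4a31 share most bases. Of all 50-base windows in the annotated transcripts of a gene, 43.8% for Cyp4a32, 29.8% for Cyp4a10 and 20.6% for Cyp4a31 were also found in another gene, mostly in each other, so that their counts are uncertain. Of the windows of Cyp4a12a, 48.9% were shared with Cyp4a12b. Cyp4a14 shared 0.235% of its windows and is the member of the cluster whose reads are the most specific.

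The acyl-CoA thioesterase genes Acot2, Acot1, Acot4 and Acot3 form another cluster, on chromosome 12 from 83987861 to 84060402. Acot1 and Acot2 were 95.6% identical over the aligned coding bases, whereas Acot3 was 84.0% identical to Acot1 and 84.2% to Acot2, and Acot4 was 74.2% to 75.4% identical to the others. The windows shared with other genes were 19.2% for Acot1, 27.7% for Acot2, 19.1% for Acot3 and 4.53% for Acot4. Acot3 shared the most windows with Gm49366. Of the exonic bases, 20.6% of Acot3 and 9.71% of Acot4 are also exonic in Gm49366 (same strand) or 4732463B04Rik (opposite strand). Counting only overlapping genes that are in the counts, the shares were 9.075% and 9.215%. Fragments on both genes can stay uncounted, so that the low counts of Acot3 are uncertain. The part of this in its values below was not tested. The 60 coding bases of the last exon where Acot1 and Acot2 differ most are written with the 13 positions that differ in capitals, on the plus strand at chr12:84016942-84017001 and chr12:83992664-83992723.
Acot1: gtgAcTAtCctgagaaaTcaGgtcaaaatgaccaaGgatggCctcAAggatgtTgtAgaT
Acot2: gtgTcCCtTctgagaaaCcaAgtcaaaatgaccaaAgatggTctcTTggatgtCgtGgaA

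PPAR-alpha with RXR is known to bind repeats of AGGTCA that are 1 base apart, and the 250 bases before the transcription start were searched for AGGTCANAGGTCA (N, any base) on both strands in the RefSeq promoters of GRCm38. Promoters were found for 33 of the 41 genes. For a gene with more than 1 promoter the best match over them was taken. With at most 2 mismatches over the repeats, 6 of the 33 (18.2%) held such a stretch, against 1005 of all 27025 genes with a promoter (3.72%). The stretches are written along the strand of each gene, with the 13 matched bases in capitals, and all but that of Creb3l3 match on the opposite strand. Fabp1 had 1 mismatch, and its 13 matched bases ended 55 bases before the start. Its written stretch lies at chr6:71199797-71199839 on the plus strand. The other 5 had 2 mismatches, and their written stretches lie at chr12:84038351-84038378 (Acot4, plus strand), chr5:17835932-17835974 (Cd36, minus), chr10:81092773-81092815 (Creb3l3, minus), chr9:55512293-55512335 (Etfa, minus) and chr4:86670257-86670299 (Plin2, minus). That of Creb3l3 lies inside the gene. Its other promoter, chr10:81098873-81099122, at the start of the gene in GENCODE M21, had 4 mismatches at best.
Fabp1: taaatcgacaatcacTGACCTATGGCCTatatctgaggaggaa
Acot4: ctcagccccgaagcaTGACCTTTGGCCG
Cd36: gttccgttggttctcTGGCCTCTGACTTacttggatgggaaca
Creb3l3: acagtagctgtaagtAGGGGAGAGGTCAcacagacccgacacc
Etfa: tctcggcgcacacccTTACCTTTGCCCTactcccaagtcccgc
Plin2: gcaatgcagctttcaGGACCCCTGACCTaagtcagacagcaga

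A match of letters is a description and not a binding site. None of these 6 genes was among those with an unadjusted p under 0.05 described below. Among those that were, Cyp4a32 and Plin5 had 3 mismatches at best, a match that 23.7% of all genes with a promoter reach, and Acot1, Acot3 and Pdk4 had 4. For Cyp4a10, Cyp4a31 and Angptl4, which were also among them, no promoter was found, so that they were not searched.

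Levels were compared between genes by the deposited FPKM, which divides by gene length. They spanned from Fabp1, the liver fatty acid binding protein, with a mean of 1558 FPKM over the 6 libraries, to Etfb at 0.734 FPKM. After Fabp1 came Acaa2, the mitochondrial thiolase, at 387 FPKM, and Slc27a2, a fatty acid transporter and very long-chain acyl-CoA synthetase, at 181 FPKM. The libraries of Fabp1 (1156 to 2272 FPKM), Acaa2 (349 to 443) and Slc27a2 (149 to 222) did not overlap each other.

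Cpt1a (112 FPKM), Etfa (111) and Acaa1b (104) followed, and their order is not resolved, since the libraries of Cpt1a alone ran from 74.9 to 172 FPKM. Acadl (89.6 FPKM) and the transcription factor Creb3l3 (65.2) completed the 8 highest. At the other end, Acot3 had a mean of 1.26 FPKM and the other Acot genes 3.07 to 5.91 FPKM. The position of Cyp4a10 (28.3 FPKM) and Cyp4a14 (17.5 FPKM) rests on FOXA2H-KO replicate 4, in which they had 127 and 93.4 FPKM, against 3.23 to 13.1 and 0.463 to 4.34 FPKM in the other 5 libraries.

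**Figure D1:**
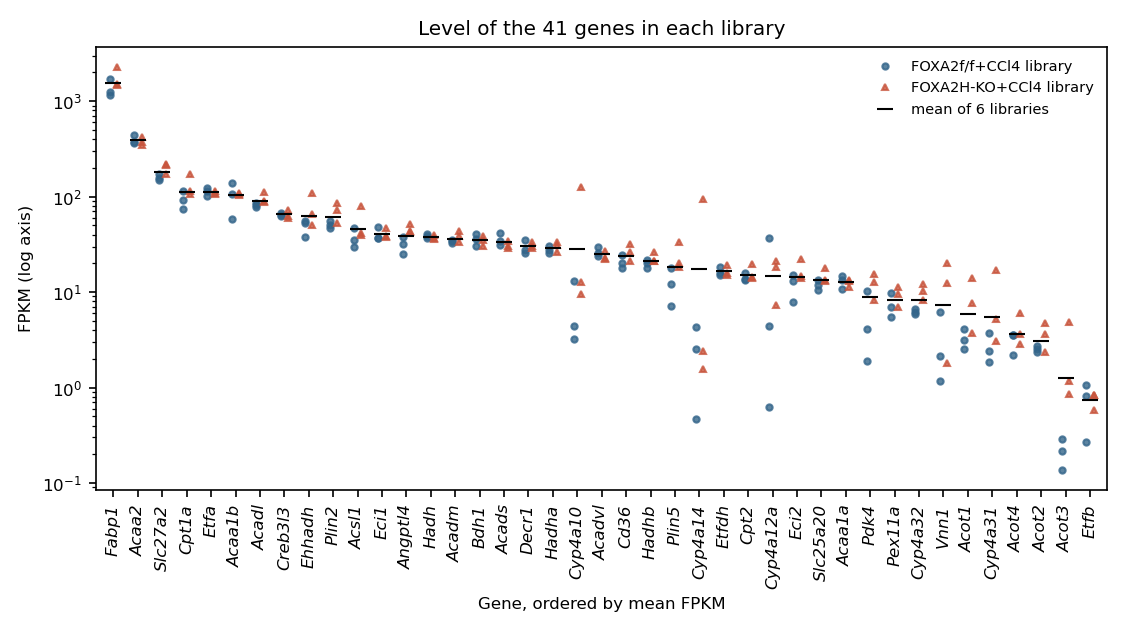
FPKM of each of the 41 genes in each library on a log axis, ordered by the mean over 6 libraries (black dash); circles are FOXA2f/f+CCl4 and triangles FOXA2H-KO+CCl4 libraries. Fabp1 stands highest at 1558 FPKM, and Cyp4a14, Cyp4a12a, Cyp4a10, Acot3 and Vnn1 spread over the widest ranges between libraries.

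Etfb, one subunit of the electron transfer flavoprotein, had 14 to 69 counts per library, whereas Etfa, the other subunit of the same protein, was at 100.4 to 123 FPKM. In GENCODE M21 58.2% of the exonic bases of Etfb are also exonic in Gm45233 or Mir7051, and Gm45233 lies on the same strand. Fragments that fall on both genes can stay uncounted, so that the level of Etfb is uncertain. Acadvl overlaps Dvl2 on the opposite strand in 42.9% of its exonic bases, and whether the counting used strand is not given in the sources used here.

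The comparison of FOXA2H-KO with FOXA2f/f hepatocytes asks which of these genes depend on FOXA2 in the fibrotic liver. All 41 genes passed the filter on low counts, and none reached an adjusted p under 0.05 with a fold change of at least 2 by edgeR's quasi-likelihood test, which called 0.00694% of all genes tested. An unadjusted p under 0.05 was reached by 8 of the 41, all with higher values in FOXA2H-KO, where 1.98% of all genes tested were higher and 3.18% lower at that threshold. The 8 were Acot3, Cyp4a32, Acot1, Cyp4a10, Cyp4a31, Plin5, Angptl4 and Pdk4. Since the 41 were chosen with earlier results known, these shares are a description alone. With an unadjusted p under 0.05 and a fold change of at least 2, 5 of the 41 passed, and 1.76% of all genes. DESeq2 called 1 of the 41, Acot3, and 0.457% of the genes it tested, and edgeR's exact test called Acot3 and Cyp4a10 and 0.617% of all genes.

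In 4 of the 41 genes all 3 FOXA2H-KO libraries lay above all 3 FOXA2f/f libraries, and in 0 they all lay below, against 4.54% and 5.96% of all genes tested. These 4 were Acot3, Cyp4a32, Plin5 and Angptl4, each with p = 0.1 in the exact two-sided permutation test, the smallest that 3 libraries against 3 allow. The fitted change was positive for 26 and negative for 15 of the 41 genes, with a median log2 fold change of 0.21, whereas the median of all genes tested was −0.01.

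These counts rested in large part on 1 library. Without FOXA2H-KO replicate 4, 18 of the 41 had a positive fitted change, the median was −0.05 and 1 gene, Acot3, had an unadjusted p under 0.05, where 1.15% of all genes were higher and 1.63% lower at that threshold. Without it, 6 genes had both FOXA2H-KO libraries above all FOXA2f/f libraries and 2 had them below, against 7.36% and 8.3% of all genes. Without FOXA2f/f replicate 1, the count with an unadjusted p under 0.05 was 3, for which no share of all genes was computed.

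**Figure D2:**
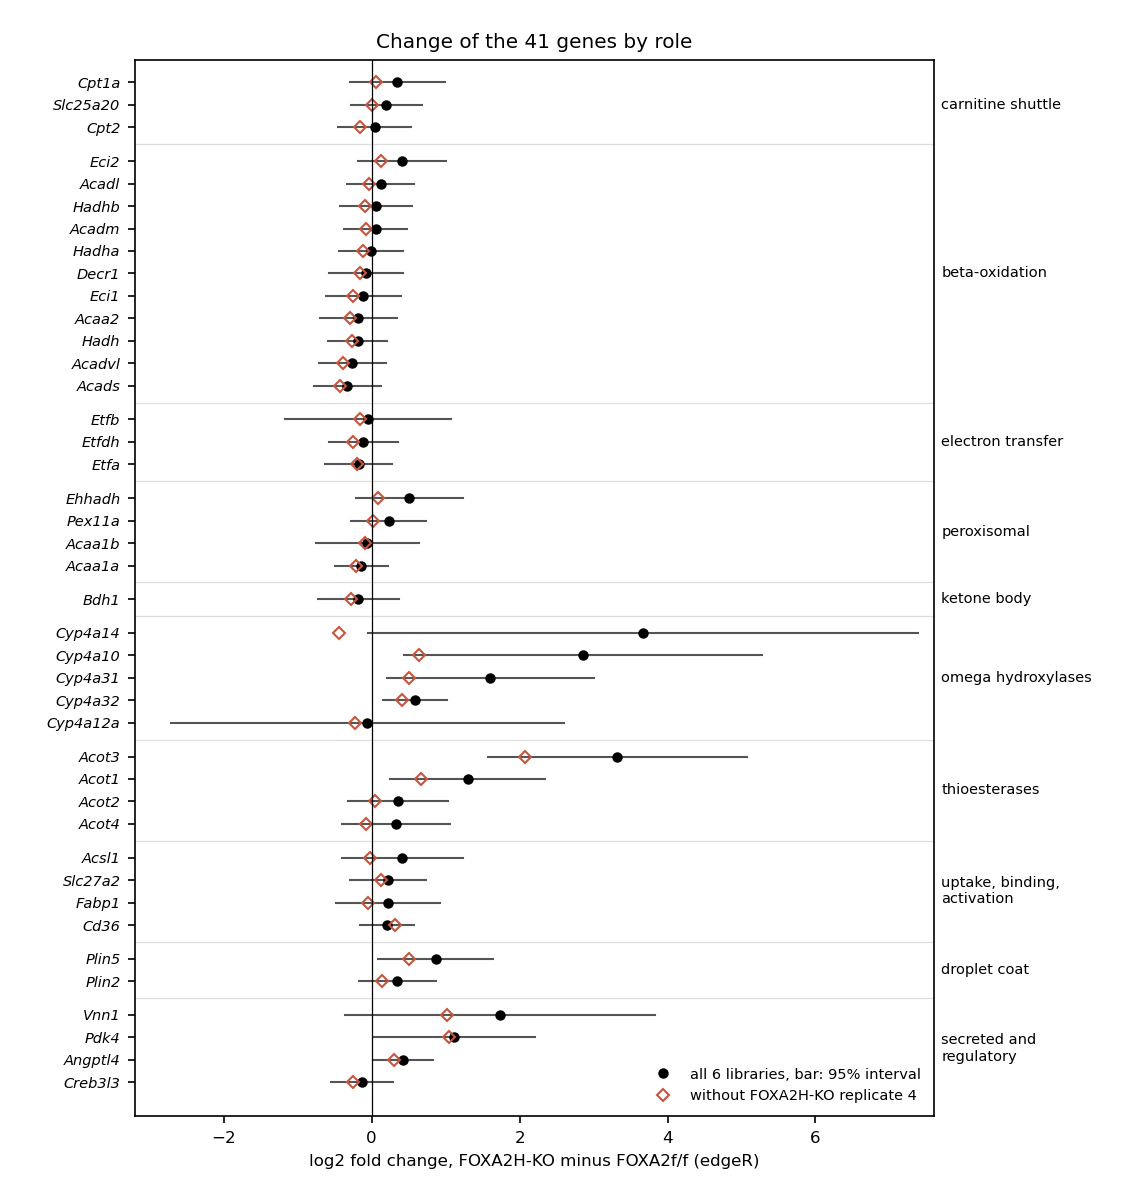
Fitted log2 fold change (FOXA2H-KO minus FOXA2f/f, edgeR) of the 41 genes by role, with 95% intervals as bars; open diamonds give the value without FOXA2H-KO replicate 4. Intervals of 8 genes lie above 0, and Cyp4a14, Cyp4a10, Acot3 and Cyp4a31 moved most when that library was left out.

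The omega hydroxylases of the Cyp4a family had the highest median of any role with all 6 libraries, 1.60 on the log2 scale. Without FOXA2H-KO replicate 4 it was 0.41, below the role of Angptl4, Pdk4, Vnn1 and Creb3l3, which went from 0.77 to 0.66. Cyp4a10 had 14.0, 10.6 and 33.7 CPM in FOXA2f/f and 24.5, 36.1 and 365 CPM in FOXA2H-KO libraries. FOXA2H-KO replicate 4 was 10.1 times above the next highest library, while the other 2 FOXA2H-KO libraries lay within or just above the FOXA2f/f range. Its log2 fold change was 2.86 (SE 1.04, adjusted p = 0.853, edgeR), 0.64 without that library and 3.52 without FOXA2f/f replicate 4.

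Cyp4a14 had 1.46, 14.3 and 6.55 CPM in FOXA2f/f and 3.97, 6.86 and 269.9 CPM in FOXA2H-KO libraries. FOXA2H-KO replicate 4 was 18.9 times above the next highest library, FOXA2f/f replicate 2, and the other 2 FOXA2H-KO libraries were inside the FOXA2f/f range. The log2 fold change of 3.67 (SE 1.60, 95% interval −0.05 to 7.38, adjusted p = 0.941, edgeR) turned to −0.44 without that library, and was 4.51 without FOXA2f/f replicate 2. DESeq2 gave no p for Cyp4a10 and Cyp4a14, because each holds a count that it marks as an outlier.

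Cyp4a31 had 11.8, 9.38 and 14.8 CPM in FOXA2f/f and 20.7, 13.5 and 76.0 CPM in FOXA2H-KO libraries. FOXA2H-KO replicate 4 was again alone, 3.68 times above the next, and replicate 2 lay inside the FOXA2f/f range. The log2 fold change was 1.60 (SE 0.60, adjusted p = 0.894, edgeR), and 0.51 without that library.

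Cyp4a32 had 12.4, 12.6 and 11.1 CPM in FOXA2f/f and 16.8, 14.9 and 22.5 CPM in FOXA2H-KO libraries. The groups did not overlap. The FOXA2f/f libraries were close (SD 0.807 CPM) and the FOXA2H-KO libraries less so (SD 3.96 CPM). The fitted log2 fold change was 0.59 (SE 0.19, adjusted p = 0.799, edgeR). Without FOXA2H-KO replicate 4 it was 0.41 on the log2 scale and its unadjusted p was no longer under 0.05. Its reads are the hardest to tell from Cyp4a10 and Cyp4a31, the near-copies that were highest in the same library, and the part of shared reads in this difference was not tested.

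Cyp4a12a went another way. It had 1.68, 103 and 9.63 CPM in FOXA2f/f and 46.2, 17.5 and 45.2 CPM in FOXA2H-KO libraries. The FOXA2f/f libraries spanned both the lowest and the highest value, 61.3-fold apart, so that no difference between the groups could be read (log2 −0.06, SE 1.14). Without FOXA2f/f replicate 2 the same value was 2.66.

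The thioesterases, which release free fatty acids from acyl-CoA, all had positive fitted changes with a median of 0.83. Without FOXA2H-KO replicate 4, 3 of the 4 were positive and the median was 0.36. Acot3, a peroxisomal thioesterase, had 0.988, 0.493 and 0.604 CPM in FOXA2f/f (23, 9 and 19 counts) and 3.27, 2.61 and 15.3 CPM in FOXA2H-KO libraries (89, 65 and 330 counts). Every FOXA2H-KO library was above every FOXA2f/f library, with replicate 4 4.66 times above the next. The fitted fold change was 9.99 (log2 3.32, SE 0.75, adjusted p = 0.579, edgeR), and DESeq2 gave an adjusted p of 0.000565. Leaving out any 1 library kept the log2 value between 2.07 and 3.72, with the lowest value and an unadjusted p still under 0.05 without FOXA2H-KO replicate 4.

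Acot1, the cytosolic thioesterase, had 4.30, 5.65 and 5.78 CPM in FOXA2f/f and 10.8, 5.77 and 22.2 CPM in FOXA2H-KO libraries. FOXA2H-KO replicate 2 was level with FOXA2f/f replicate 4, and replicate 4 was 2.06 times above the next. The log2 fold change was 1.30 (SE 0.45, adjusted p = 0.836, edgeR), and 0.67 without that library. Acot2, the mitochondrial form that shares most sequence with Acot1, had group means of 5.89 ± 0.822 and 7.57 ± 2.80 CPM (SD, n = 3), and Acot4 of 9.55 ± 2.06 and 12.0 ± 5.17 CPM (SD, n = 3). Both had overlapping groups, with log2 fold changes of 0.36 and 0.33, which were 0.05 and −0.07 without FOXA2H-KO replicate 4.

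Of the lipid droplet coat proteins, Plin5, which ties droplets to mitochondria in oxidative tissues, had 24.9, 44.1 and 50.7 CPM in FOXA2f/f and 55.7, 56.5 and 106 CPM in FOXA2H-KO libraries. The groups did not overlap, but FOXA2f/f replicate 4 came close to FOXA2H-KO replicates 1 and 2. The log2 fold change was 0.87 (SE 0.33, adjusted p = 0.918, edgeR) and 0.50 without FOXA2H-KO replicate 4. Plin2, the general hepatocyte droplet coat, had 280 ± 43.8 and 356 ± 92.8 CPM (SD, n = 3) and a log2 fold change of 0.35 (SE 0.23), with overlapping groups. The median of both genes was 0.61, and 0.32 without FOXA2H-KO replicate 4.

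Angptl4, a secreted inhibitor of lipoprotein lipase, had 145, 191 and 177 CPM in FOXA2f/f and 200.2, 217 and 269 CPM in FOXA2H-KO libraries. All 3 FOXA2H-KO libraries were above, the lowest by a small margin, with a log2 fold change of 0.42 (SE 0.18, adjusted p = 0.941, edgeR). Pdk4, the kinase that shuts off pyruvate dehydrogenase so that fatty acids are burned in place of glucose, had 18.0, 8.77 and 36.9 CPM in FOXA2f/f and 55.3, 32.2 and 51.1 CPM in FOXA2H-KO libraries. FOXA2H-KO replicate 1 was the highest and replicate 2 overlapped with FOXA2f/f replicate 4. The log2 fold change of Pdk4 was 1.11 (SE 0.47, adjusted p = 0.941, edgeR), 1.04 without FOXA2H-KO replicate 4, 0.75 without FOXA2f/f replicate 2 and 1.78 without FOXA2f/f replicate 4.

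Vnn1, a pantetheinase that recycles the vitamin part of coenzyme A, had 16.3, 5.92 and 2.57 CPM in FOXA2f/f and 3.94, 29.4 and 48.9 CPM in FOXA2H-KO libraries. The libraries within each group were far apart and FOXA2H-KO replicate 1 was below 2 of the FOXA2f/f libraries (log2 1.73, SE 0.90, adjusted p = 0.951, edgeR). The log2 value was 1.02 without FOXA2H-KO replicate 4 and 2.73 without FOXA2f/f replicate 1. Creb3l3, a transcription factor tethered to the endoplasmic reticulum, had 269, 298 and 217 CPM in FOXA2f/f and 214, 223 and 277 CPM in FOXA2H-KO libraries. These overlapped almost fully, with a log2 fold change of −0.13 (SE 0.18).

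**Figure D3:**
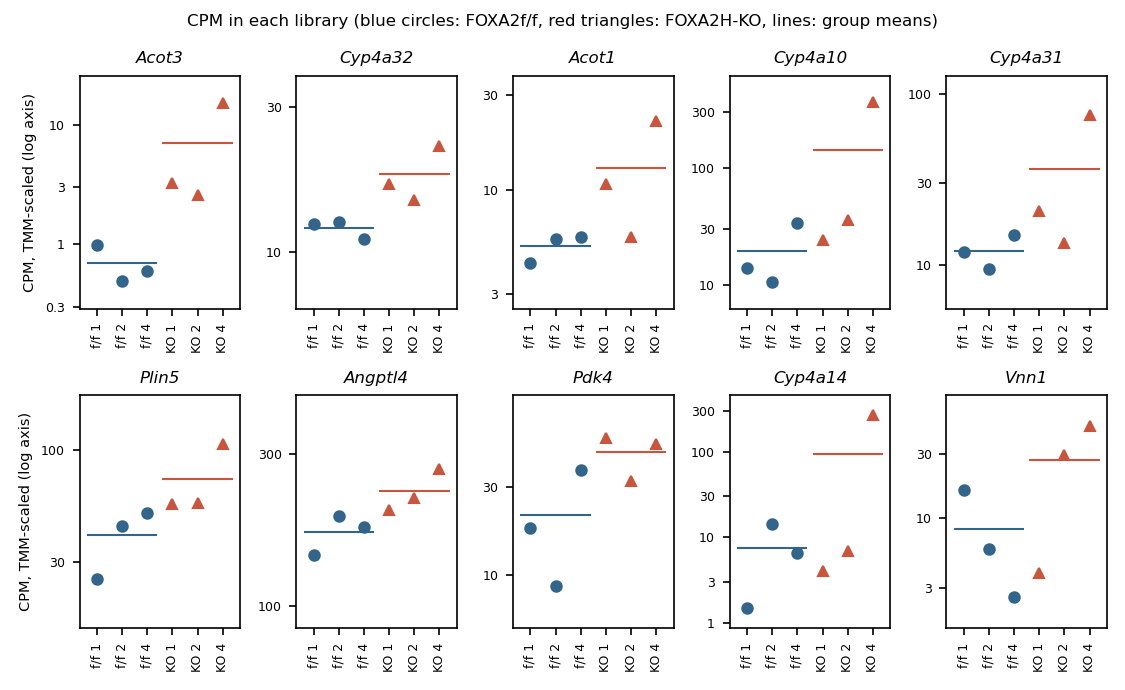
CPM on log axes in each library for the 10 genes with an unadjusted p under 0.05, without overlap between groups or with a fitted change of at least 1.5-fold; lines are group means. FOXA2H-KO replicate 4 is the highest library in every panel except that of Pdk4, and is 18.9 and 10.1 times above all others for Cyp4a14 and Cyp4a10.

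The carnitine shuttle had small positive fitted changes in all 3 genes, with a median of 0.20, and 0.00 without FOXA2H-KO replicate 4. Cpt1a, the rate-limiting enzyme at the outer mitochondrial membrane, had 546, 371 and 359 CPM in FOXA2f/f and 434, 445 and 744 CPM in FOXA2H-KO libraries. FOXA2H-KO replicate 4 was the highest and FOXA2f/f replicate 1 the next, and the log2 fold change was 0.35 (SE 0.28). Cpt2, at the inner membrane, and the carrier Slc25a20 had log2 fold changes of 0.04 (SE 0.21) and 0.20 (SE 0.21).

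The mitochondrial beta-oxidation enzymes lay close to 0, with 4 positive and 7 negative fitted changes, a median of −0.07 and none at an unadjusted p under 0.05. Without FOXA2H-KO replicate 4, 1 of the 11 was positive and the median was −0.16. They ranged from −0.33 for Acads, the short-chain acyl-CoA dehydrogenase, to 0.41 for Eci2, an enoyl-CoA isomerase also found in peroxisomes. Acads had 116 ± 26.8 and 92.1 ± 12.9 CPM (SD, n = 3), and Eci2 71.0 ± 16.2 and 94.4 ± 29.6 CPM (SD, n = 3), both with overlap.

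Among the most abundant of them, Acaa2 had 628, 772 and 491 CPM in FOXA2f/f and 471, 551 and 650 CPM in FOXA2H-KO libraries. FOXA2f/f replicate 2 was the highest, and the log2 fold change was −0.18 (95% interval −0.69 to 0.34). Acadl, the long-chain dehydrogenase, had 185, 200 and 143 CPM in FOXA2f/f and 165, 176 and 233 CPM in FOXA2H-KO libraries, with FOXA2H-KO replicate 4 the highest. Its log2 fold change was 0.12 (95% interval −0.33 to 0.57).

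The other dehydrogenases Acadvl and Acadm, for very long and medium chains, had log2 fold changes of −0.26 (SE 0.19) and 0.05 (SE 0.19). Hadha and Hadhb, the subunits of the trifunctional protein, had values of −0.01 (SE 0.19) and 0.06 (SE 0.21), and Hadh, the hydroxyacyl-CoA dehydrogenase, −0.19 (SE 0.17). Eci1 and the dienoyl-CoA reductase Decr1 had −0.11 (SE 0.22) and −0.07 (SE 0.21). The 95% interval of every one of these 11 enzymes lay between −0.78 and 1.01.

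FOXA2f/f replicate 2 was the highest library for 7 of these 11 enzymes and FOXA2f/f replicate 4 the lowest for 6. Their summed level was 2279, 2661 and 1829 CPM in FOXA2f/f and 1892, 2035 and 2527 CPM in FOXA2H-KO libraries. The same 2 FOXA2f/f libraries had the lowest and highest macrophage and endothelial marker sums given above, and hepatocyte marker sums of 176420 and 121390 CPM. In bulk RNA, fewer cells of a type and less RNA per cell cannot be told apart, and the part of cell composition in these levels was not tested.

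The carriers of electrons from the acyl-CoA dehydrogenases all had small negative fitted changes, with a median of −0.11, and −0.19 without FOXA2H-KO replicate 4. Etfa had 274, 310 and 198 CPM in FOXA2f/f and 206, 247 and 241 CPM in FOXA2H-KO libraries, all of the latter inside the FOXA2f/f range (log2 −0.17, SE 0.20). Etfdh, which passes the electrons on to ubiquinone, had −0.11 (SE 0.20), and Etfb, with its uncertain counts, −0.04 (SE 0.48).

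In peroxisomes, Ehhadh, the bifunctional enzyme of beta-oxidation, had 154 ± 30.1 and 219 ± 98.8 CPM (SD, n = 3) and a log2 fold change of 0.51 (SE 0.31), which was 0.09 without FOXA2H-KO replicate 4. Acaa1b, a peroxisomal thiolase, had 147, 358 and 220 CPM in FOXA2f/f and 221, 229 and 246 CPM in FOXA2H-KO libraries. The FOXA2H-KO libraries were close together within a wide FOXA2f/f range (log2 −0.06, SE 0.30). Its near-copy Acaa1a, 96.5% identical in coding sequence, had −0.14 (SE 0.15), and Pex11a, a peroxisome proliferation factor, 0.23 (SE 0.22). The median of these 4 peroxisomal genes was 0.08, and −0.03 without FOXA2H-KO replicate 4. Bdh1, which makes beta-hydroxybutyrate in the last step of ketogenesis, had 241 ± 63.8 and 212 ± 36.9 CPM (SD, n = 3). Its log2 fold change was −0.18 (SE 0.23), and −0.28 without FOXA2H-KO replicate 4.

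The genes of fatty acid uptake, binding and activation all had positive fitted changes between 0.21 and 0.42, none at an unadjusted p under 0.05. Without FOXA2H-KO replicate 4, 2 of the 4 were positive, Fabp1 was at −0.05 and the median went from 0.22 to 0.05. Fabp1 had 703, 1091 and 615 CPM in FOXA2f/f and 720, 818 and 1266 CPM in FOXA2H-KO libraries, with replicate 2 of the former and replicate 4 of the latter the highest of their groups (log2 0.22, SE 0.30). Slc27a2 had 697, 854 and 594 CPM in FOXA2f/f and 656, 892 and 953 CPM in FOXA2H-KO libraries (log2 0.22, SE 0.22). Both overlapped between groups.

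Acsl1, the main acyl-CoA synthetase of liver, had 474 ± 149 and 632 ± 292 CPM (SD, n = 3), and its log2 fold change of 0.42 (SE 0.35) became −0.02 without FOXA2H-KO replicate 4. Cd36, a fatty acid receptor that endothelial cells and macrophages also express, had 182 ± 14.8 and 210 ± 30.1 CPM (SD, n = 3). It was one of 2 genes highest in FOXA2H-KO replicate 1, and its log2 fold change was 0.21 (SE 0.16).

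**Figure D4:**
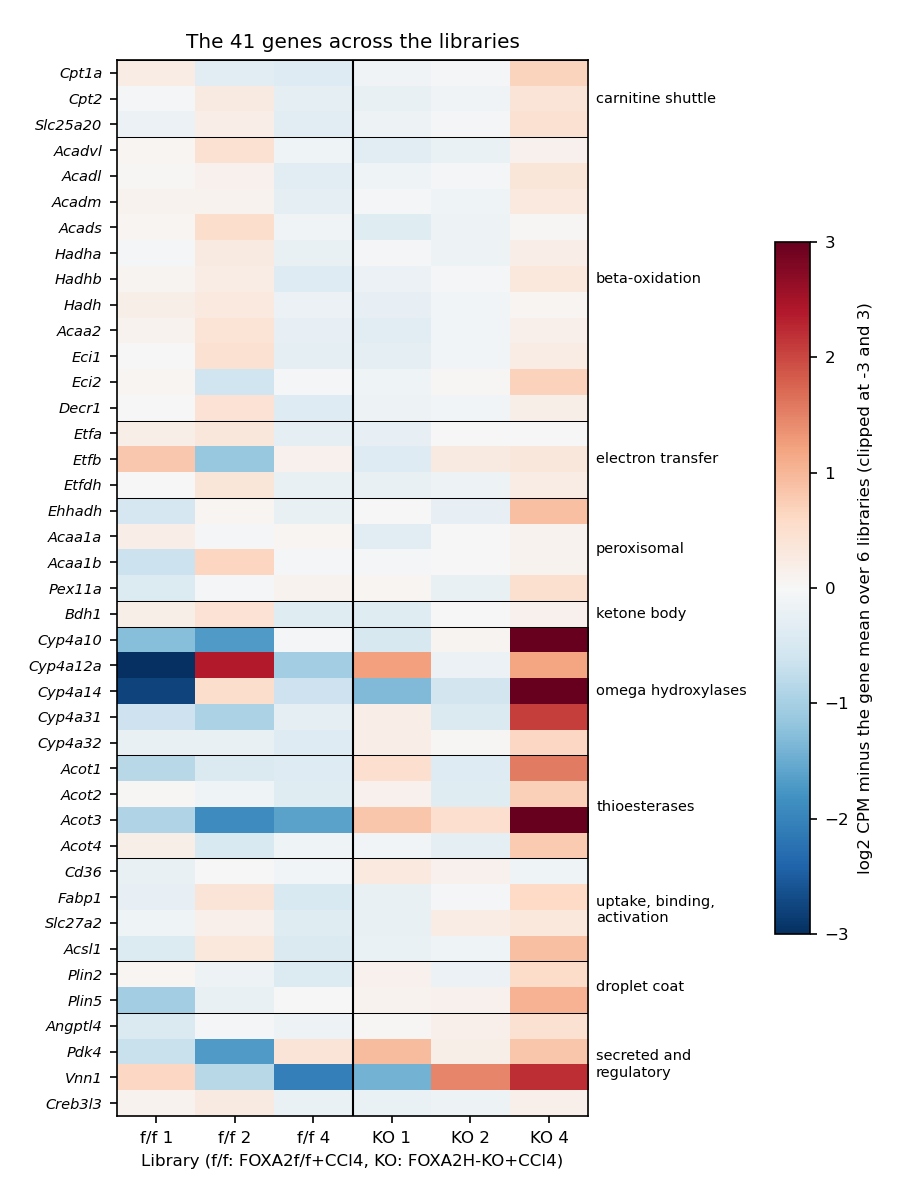
Log2 CPM of the 41 genes in each library, minus the mean of the gene over the 6 libraries and clipped at −3 and 3, grouped by role. FOXA2H-KO replicate 4 is the highest library for 24 genes, with the deepest colours for Cyp4a14, Cyp4a10 and Acot3.

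FOXA2H-KO replicate 4 was the highest library for 24 of the 41 genes (58.5%), against 13.1% of all genes tested. It was more than 2-fold above all other 5 libraries for 5 of the 41 (12.2%), namely Cyp4a14, Cyp4a10, Acot3, Cyp4a31 and Acot1, against 29 of 14417 genes (0.201%). Relative to the mean of the other 2 FOXA2H-KO libraries it was 49.9 times higher for Cyp4a14, 12.0 times for Cyp4a10, 5.19 times for Acot3, 4.45 times for Cyp4a31 and 2.69 times for Acot1. For other PPAR-alpha targets it was 2.93 times for Vnn1, 2.04 times for Ehhadh, 1.69 times for Cpt1a and 1.29 times for Angptl4, and it was 0.789 times for Cd36. FOXA2f/f replicate 2 was the highest for 13 of the 41 genes (31.7%), near its share of all genes (29.7%).

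**Figure D5:**
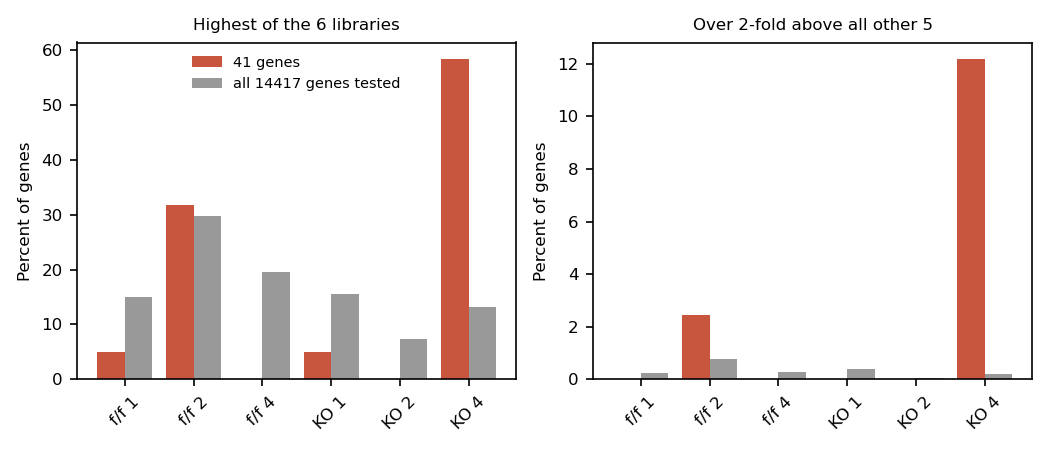
Percent of the 41 genes (red) and of all 14417 genes tested (grey) for which each library was the highest (left) or over 2-fold above all other 5 (right). FOXA2H-KO replicate 4 stands out in both panels, at 58.5% and 12.2% of the 41 genes against 13.1% and 0.201% of all genes.

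FOXA2H-KO replicate 4 had the lowest total count of its group (21793475), and its Foxa2 level of 1.62 CPM was the highest of its group and far below the lowest FOXA2f/f library. Its marker sums for macrophages (1497 CPM), endothelial cells (727 CPM) and hepatocytes (146810 CPM) were within the range of the other libraries, and most of the hepatocyte sum was albumin. Cyp3a11, a drug-metabolizing enzyme on the hepatocyte list named after its values were seen, was at 457 CPM in this library and at 4447 to 12090 CPM in the other 5, and the part of this in the other values was not tested. The adipocyte list, whose members Cfd and Lep were at 0 in all 6 libraries and Adipoq at or under 0.0736 CPM, summed to 12.3 to 29.2 CPM in FOXA2f/f and 25.3 to 35.0 CPM in FOXA2H-KO libraries, with replicate 4 the highest. Fabp4 and Cidec were the 2 members of that list with enough counts to be tested.

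Summed levels of markers of other cells overlapped between the groups, and no marker was called. All 7 cholangiocyte markers had higher fitted values in FOXA2H-KO, 2 of them at an unadjusted p under 0.05 (Krt7 and Spp1), with sums of 175 to 369 CPM in FOXA2f/f and 253 to 711 CPM in FOXA2H-KO libraries. Of 6 neutrophil markers tested 5 had lower fitted values, 4 at that threshold, with sums of 8.22 to 82.5 and 17.7 to 27.9 CPM. Of 12 stellate cell and fibroblast markers 10 had higher and 2 lower fitted values, 0 at that threshold, with sums of 1101 to 2853 and 1661 to 2678 CPM. Of 12 sinusoidal endothelial markers 5 had higher and 7 lower fitted values, 0 at that threshold. Of 12 macrophage markers 10 had higher fitted values, 0 at that threshold, and they summed to 674 to 3086 and 1497 to 2380 CPM, and their part in the values of Cd36, Plin2 and Angptl4, which such cells also express, was not tested.

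Ppara, the gene of the receptor itself, had 108, 78.6 and 88.5 CPM in FOXA2f/f and 89.7, 123 and 140 CPM in FOXA2H-KO libraries. The groups overlapped, and the log2 fold change was 0.36 (SE 0.20, adjusted p = 0.957, edgeR). Of the 22 genes listed as the receptor and its partners, 8 had positive and 14 negative fitted changes, and 1 had an unadjusted p under 0.05. This was Prkaa1, a catalytic subunit of AMP-activated kinase, with 19.3 ± 0.703 and 23.5 ± 1.04 CPM (SD, n = 3) and a log2 fold change of 0.28 (SE 0.12, adjusted p = 0.941, edgeR).

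Over all 7 lists of related genes, which hold 160 genes beside the 41, 149 were tested and none was called by edgeR. At an unadjusted p under 0.05, 7 were higher and 11 lower in FOXA2H-KO, and the median log2 fold change of the 149 was −0.07, or −0.09 over the 150 tested without FOXA2H-KO replicate 4. For these and the single lists below, 1.98% of all genes tested were higher and 3.18% lower at that threshold. Of the 41, 8 were higher and 0 lower at the same threshold. All these lists were chosen with earlier results of these data known, and the difference between them was not tested.

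Of 26 other PPAR-alpha targets tested, 4 were higher and 1 lower at that threshold. Vldlr, a lipoprotein receptor, had 9.41, 11.0 and 11.3 CPM in FOXA2f/f and 43.2, 25.7 and 31.2 CPM in FOXA2H-KO libraries. The groups were far apart and no single library made the difference, with a log2 fold change of 1.66 (SE 0.21, adjusted p = 0.45, edgeR) and 1.72 without FOXA2H-KO replicate 4. Aldh3a2, which oxidizes fatty aldehydes, had 64.4, 60.5 and 81.8 CPM in FOXA2f/f and 181, 138 and 175 CPM in FOXA2H-KO libraries. It too was separated in every library (log2 1.26, SE 0.18, adjusted p = 0.539, edgeR). Cidec, a droplet fusion protein, had 2.75, 2.03 and 0.890 CPM in FOXA2f/f and 3.53, 4.01 and 11.7 CPM in FOXA2H-KO libraries, with replicate 4 again the highest (log2 1.77, SE 0.58, adjusted p = 0.815, edgeR), and 1.02 on the log2 scale without it.

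Among 27 other genes of mitochondrial oxidation and ketogenesis tested, 1 was higher and 3 lower at that threshold, and the median log2 fold change was −0.12. The lowest p were those of Acsm1, a medium-chain acyl-CoA synthetase, at −0.56 (SE 0.19), Acad10 at −0.41 (SE 0.17) and Acsf3 at −0.52 (SE 0.22). In all of these the 3 FOXA2H-KO libraries were below the 3 FOXA2f/f libraries. Among 35 other peroxisomal genes 0 were higher and 2 lower at that threshold, Pex11g at −0.56 (SE 0.19) and the coenzyme A hydrolase Nudt7 at −1.0 (SE 0.35). A negative fitted change was found in 26 of the 35 (74.3%), against 52.2% of all genes tested.

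In omega oxidation beyond the Cyp4a genes, Aldh3a2 was the 1 gene higher and the alcohol dehydrogenases Adh4 at −0.72 (SE 0.19) and Adh5 at −0.63 (SE 0.24) were the 2 lower at that threshold, of 19 tested. Of 20 other droplet and lipolysis genes, Cidec was higher, and Pnpla3, a droplet lipase, at −2.88 (SE 0.91) and the carboxylesterase Ces1g at −1.13 (SE 0.35) were lower. Pnpla3 had 23.8 CPM in FOXA2f/f replicate 2 against 3.05 and 3.91 CPM in the other FOXA2f/f libraries. Of 19 other uptake and activation genes, Vldlr and Fabp7 (0.82, SE 0.32) were higher and Acsl3 (−0.72, SE 0.30) was lower.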

How the data were processed

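Hepatocytes of 3 FOXA2f/f+CCl4 and 3 FOXA2H-KO+CCl4 samples gave 1 poly-A, paired-end library each. The authors deposited whole-number counts of fragments per Ensembl gene for each library, without normalization, and FPKM values, which the authors derived from these counts by gene length and total count alone. The submitters' processing notes name CASAVA 1.8, TopHat2 2.1.0, HTSeq and edgeR and the build mm10. The annotation, read length and strand setting are not given in the sources used here. The labels carry the numbers 1, 2 and 4 in both groups, and each table was joined to its sample by its record. A table that repeats these columns was not used.

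The counts were fitted with edgeR 4.0.16 in R 4.3.3 (TMM factors from 0.87 to 1.12, filterByExpr, which kept 14417 genes, estimateDisp and the quasi-likelihood F test on the group, without a block). A gene was called at a Benjamini-Hochberg adjusted p under 0.05 over all genes tested and a fold change of at least 2. Log2 fold changes are FOXA2H-KO minus FOXA2f/f, the SE is the size divided by the square root of F, and SDs are over n = 3. Single genes were also compared by exact two-sided permutation tests on log2(CPM + 0.5). The common biological coefficient of variation was 25.3%, and low counts, as in Acot3 and Etfb, add counting error to it. Total counts per library were 20983455 to 28327765.

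Alternatives were DESeq2 1.42.0, edgeR's exact test, library size alone, no filter beyond 1 count, at least 10 counts in every library, limma 3.58.1 on log2(FPKM + 1) for genes with a mean FPKM of at least 1, a block for the label numbers, the omission of single libraries, and other thresholds. The fitting functions of edgeR, DESeq2 and limma were tested on simulated counts, and the other steps were not. Positions, overlaps, windows of 50 bases and coding sequences came from GENCODE M21 on GRCm38, aligned with Biopython 1.88, and promoters from RefSeq (GRCm38.p6).

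The 41 genes and all lists were chosen by name with earlier results of these data known. Library values are given for members with an unadjusted p under 0.05, without overlap between groups, with a change of at least 1.5-fold or among the 8 highest in FPKM. Beyond the members, Foxa2, Ppara and up to 3 genes of each pathway list with the smallest unadjusted p under 0.05 are named. Marker genes, Dvl2, Gm45233, Mir7051, Gm49366, 4732463B04Rik and Cyp4a12b were named after their values or overlaps were seen. No replicates were near-identical (chi-square 38.8 to 134 times its degrees of freedom).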

Additional observations from a re-analysis of the deposited data

How the results depend on the processing

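With 3 libraries a group, the spread between libraries limits what could be called. The number of genes called by edgeR's quasi-likelihood test was 1 and became 0 with library size alone, 0 with limma on FPKM, 2 without the filter on low counts, 73 with DESeq2, 89 with edgeR's exact test and 254 with an unadjusted p and a fold of at least 2. Leaving out 1 library gave 0 to 6, with 6 without FOXA2f/f replicate 2. Of the 41 genes, 1 was called by DESeq2, 2 by the exact test and 5 with the unadjusted p and fold. Leaving out 1 library gave 1 to 9 of the 41 with an unadjusted p under 0.05, the fewest without FOXA2H-KO replicate 4. It gave 6 to 10 without overlap and higher, and 0 to 4 lower. Without FOXA2H-KO replicate 4 the shares of all genes without overlap also rose, from 4.54% and 5.96% to 7.36% and 8.3%. Shares of all genes for these counts were not computed without the other single libraries. The median over the 41 with 1 library left out was −0.051 to 0.27, and negative without FOXA2H-KO replicate 4. Library size alone moved the median of all genes to 0.10, and limma on FPKM moved it to 0.08.

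Deviations of same-numbered libraries had correlations over genes of −0.0906, 0.0527 and −0.242, and those of unlike-numbered libraries −0.207 to 0.281. With 3 libraries a group, these values cannot tell whether the numbers pair the libraries. With the replicate block 0 genes were called, and Etfb, Acaa1b and Cyp4a12a turned positive, at 0.093, 0.035 and 1.67. Over 531 values of single genes under other settings, 488 kept their direction and side of the threshold, 3 passed it and 40 changed sign, in 16 genes. The cause was not tested. Library size alone gave 0.12 for Hadha, 0.023 for Eci1, 0.069 for Decr1, 0.050 for Etfb, 0.020 for Etfdh, 0.072 for Acaa1b and 0.18 for Cyp4a12a. Limma on FPKM gave 0.11 for Hadha, 0.026 for Eci1, 0.076 for Decr1, 0.017 for Etfdh, 0.15 for Acaa1b and 1.15 for Cyp4a12a.

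With 1 library left out, the log2 fold change ranged from −0.12 to 0.14 for Hadha, −0.27 to 0.12 for Eci1, −0.25 to 0.15 for Decr1, −0.40 to 0.46 for Etfb, −0.25 to 0.063 for Etfdh, −0.30 to 0.34 for Acaa1b, −0.37 to 0.0089 for Bdh1 and −0.60 to 2.66 for Cyp4a12a. It ranged from −0.16 to 0.20 for Cpt2, −0.034 to 0.22 for Acadl, −0.078 to 0.13 for Acadm, −0.10 to 0.19 for Hadhb, −0.44 to 4.51 for Cyp4a14, −0.070 to 0.53 for Acot4, −0.051 to 0.51 for Fabp1 and −0.020 to 0.71 for Acsl1.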
